A study of Mus musculus with 4 samples.

Results

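The potassium, calcium and sodium channel genes are the 137 genes of 31053 in the count tables whose symbols begin with Kcn and a further letter, with Cacn and a, b or g, or with Scn and a digit. The rule matched 139 symbols, and Kcnj11 and Cacna1d were left out of it. The genes were chosen by name and not by any measured value. They comprised 14 K2P background K+ channel genes, 14 inward rectifiers, 40 pore subunits of voltage-gated K+ channels, 12 auxiliary K+ channel subunits, 12 genes of the Ca2+- or Na+-activated K+ channels, 9 Ca2+ channel pore subunits, 4 α2δ, 4 β and 8 γ subunits of Ca2+ channels, 10 Na+ channel pore subunits and 4 Na+ channel β subunits. The remaining 6 matched by name only and encode no channel subunit, among them the long noncoding RNA Kcnq1ot1.

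The study sequenced single cells of mouse pancreatic islets in 4 libraries, which were untreated or treated for 6 h with IL-1β, with IFN-γ, or with both cytokines. The mice were adult C57BL/6 males (C57BL6/J in the methods) with no genetic change named, and their islets were pooled before the pool was divided among the 4 treatments, ex vivo and intact. Each condition was 1 library, so no comparison below has a test, the intervals given are exact 95% intervals that cover counting error only, and the difference between any pair of libraries cannot be told apart from that between their treatments. Of 12571 barcodes, 7471 were kept, namely those with no fewer than 200 and no more than 4000 genes and with mitochondrial transcripts up to 12% of the total, which was fewer cells than the study states for these limits, and the cause was not found. The IL-1β was the human protein and the IFN-γ that of the mouse, and the labels give no time for the untreated library.

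Islet endocrine cells are electrically excitable. In β-cells, glucose metabolism closes the ATP-sensitive K+ channel, the membrane depolarizes, voltage-gated Ca2+ and Na+ channels carry the action potential, and the Ca2+ that enters triggers insulin release. Voltage-gated, Ca2+-activated and background K+ channels repolarize the membrane and so limit Ca2+ entry. The glucagon-secreting α-cells and the somatostatin-secreting δ-cells use much the same channel families.

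Cells were assigned by the share of their unique molecular identifiers (UMIs, counts of captured transcripts) that came from insulin, glucagon or somatostatin, with at least 5% of UMIs from the leading hormone. This gave 5032 β-cells (1195 without treatment, 1217 with IL-1β, and 1310 each in the IFN-γ library and the combined one), 934 α-cells (91, 359, 305 and 179) and 372 δ-cells (44, 109, 150 and 69). Values given in a row keep this order of the libraries. Of the β-cells 23, 133, 91 and 51 lay near the limit, with a leading hormone under 10%. Of the δ-cells 17, 72, 76 and 39 lay near it. Of the fixed β-cell markers 8 of 8 were detected in the β-cells of each library, and of the α-cell markers 7 of 7 in the α-cells. The marker lists include the hormones that set the classes, and detection did not separate β- from α-cells. All 7 α-cell markers were also detected in the β-cells of each library, and 8, 8, 8 and 7 of the β-cell markers in the α-cells. The δ-cells held 4, 5, 5 and 4 of 6 δ-cell markers, led by Sst, with Prg4 at 0 in all libraries and Lepr at 0 in the untreated library and with both cytokines. The pancreatic polypeptide cell markers Ppy, Pyy and Tmem51 summed to 94484, 57647, 88018 and 68615 CPM in δ-cells (counts per 1000000 UMIs of the class in that library), so the δ class was not of a single hormone. Endothelial markers summed to at most 15.7 CPM in β-cells, 6.77 in α-cells and 24.0 in δ-cells, and mesenchymal markers to at most 4.20, 10.9 and 10.6. Macrophage markers, led by C1qa in all but the δ-cells with IL-1β, summed to 82.3, 47.9, 46.5 and 143 CPM in β-cells, 51.2, 16.6, 24.5 and 51.7 in α-cells and 90.5, 33.6, 67.3 and 94.8 in δ-cells. Acinar markers in β-cells summed to 66.9, 13.8, 68.7 and 279 CPM, and ductal markers to 222, 419, 219 and 217, led by Krt7 or Spp1. In α-cells the ductal marker Spp1 alone had 2344, 8671, 3085 and 4221 CPM, and the glial marker Sox10 was at 0 in all 3 classes. Glucagon transcripts in β-cells stood at 438, 3866, 814 and 1283 CPM and those of somatostatin at 76.0, 779, 258 and 332. The part of these other cells in the channel values was not tested. Between pairs of libraries 16 barcodes were shared, 4 of them among the kept cells.

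The depth was unequal. The median β-cell held 17094, 8528, 11078.5 and 12271 UMIs. The upper limit on genes removed 733 β-cells of the untreated library and 66, 178 and 156 of the treated ones. Levels below are CPM, from 20172794, 10658983, 14506695 and 16175488 UMIs of β-cells. The α-cells gave 918559, 2534514, 2486488 and 1625163 UMIs and the δ-cells 375766, 596108, 1115095 and 453677. The hormones took 47.5% of untreated β-cell UMIs and 28.4%, 34.4% and 37.8% in the treated libraries. The median gene counted in both libraries was shifted in β-cells by 0.38, 0.30 and 0.03 (log2) in the 3 treated libraries against the untreated one, and by -0.34 with both cytokines against IL-1β alone. In α-cells those shifts were -0.10, 0.03, -0.18 and -0.07, and in δ-cells -0.03, -0.08, -0.12 and -0.07. Counts are of transcript 3′ ends and are not divided by gene length, so values of different genes are set side by side only as ratios between libraries.

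Of the 137 genes, 48 reached 20 UMIs in at least 1 library of β-, α- or δ-cells, 62 had between 1 and 19 at most, and 27 had none. In β-cells 41 reached 20 UMIs, in α-cells 27 and in δ-cells 23. The measured genes were 4 of the K2P genes, 3 inward rectifiers, 12 voltage-gated K+ pore subunits, 5 auxiliary K+ subunits, 6 genes of the Ca2+- or Na+-activated family, 4 Ca2+ pore subunits, 4 α2δ, 3 β and 1 γ subunit, 3 Na+ pore subunits, 2 Na+ β subunits and Kcnq1ot1. Genes below that count entered no comparison between libraries.

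**Figure D1:**
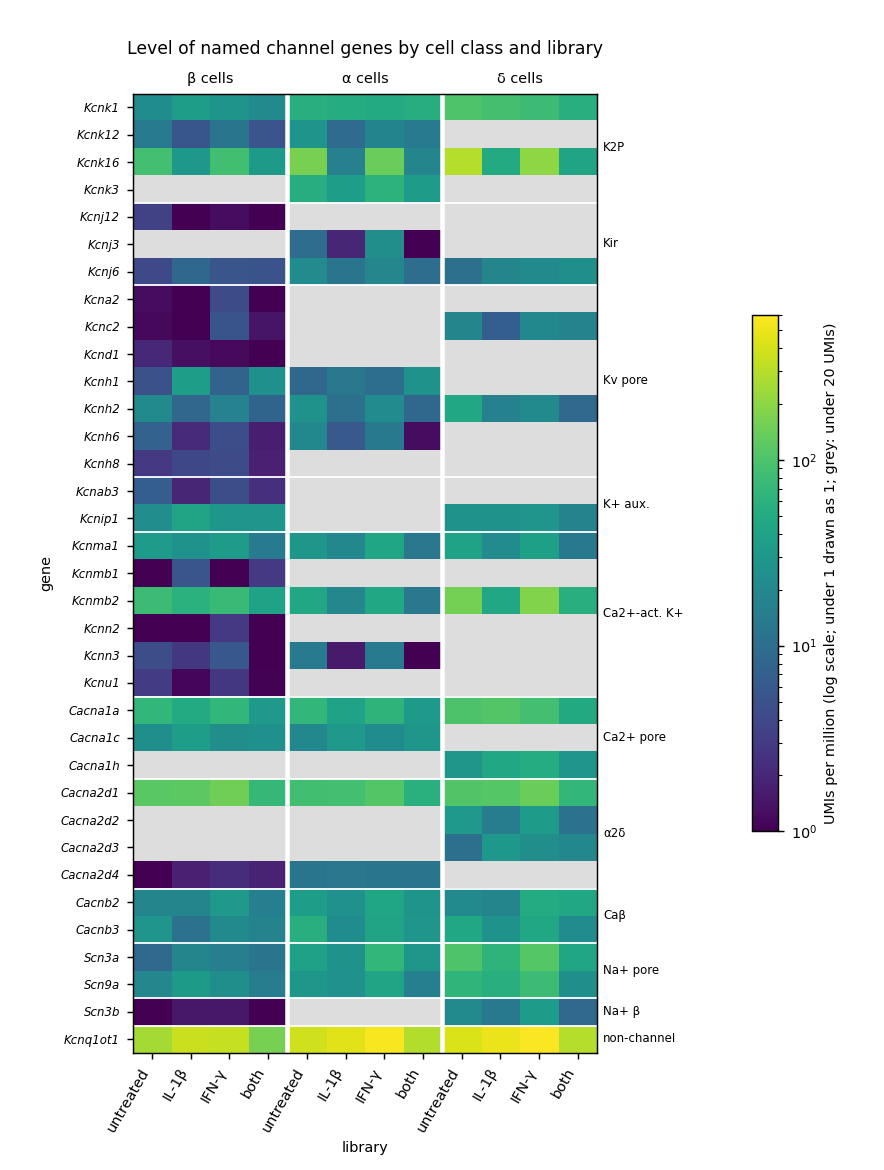
Level of the 35 measured genes named in the text, of 48 in all (rows, grouped by family), in CPM, on a log color scale, in β-, α- and δ-cells of the 4 libraries (columns). Grey marks genes under 20 UMIs in every library of that class. Kcnk16 is bright in the untreated and IFN-γ columns of all 3 classes and darker in the libraries that received IL-1β.

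The start regions of Kcnk16, Kcnh1 and Kcnmb1 are printed because the results turn on them, Kcnmb1 and Kcnh1 having the highest ratios with IL-1β in β-cells and Kcnk16 the lowest in α- and δ-cells. Kcnk16 encodes TALK-1, an alkaline-activated K2P channel of the islet, and lies at chr14:20261376-20269199 (minus strand, mm10). Kcnh1 encodes the ether-à-go-go voltage-gated K+ channel and lies at chr1:192190774-192510159 (plus strand). Kcnmb1 encodes an auxiliary β subunit of the large-conductance Ca2+-activated K+ channel and lies at chr11:33963013-33973641 (plus strand), inside the minus-strand gene Kcnip1. The RefSeq sequences (GRCm38.p6) run from 250 bases before the RefSeq gene start to 50 after it, which for Kcnk16 lies wholly before the annotated span given here, and a RefSeq entry was matched for 101 of the 137 genes.
Kcnk16, chr14:20269220-20269519, minus strand: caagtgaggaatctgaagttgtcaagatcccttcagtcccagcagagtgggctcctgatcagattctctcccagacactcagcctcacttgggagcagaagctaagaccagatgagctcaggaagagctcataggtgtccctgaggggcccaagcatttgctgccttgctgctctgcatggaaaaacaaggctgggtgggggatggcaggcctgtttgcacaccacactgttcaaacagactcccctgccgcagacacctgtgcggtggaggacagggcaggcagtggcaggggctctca
Kcnh1, chr1:192190527-192190826, plus strand: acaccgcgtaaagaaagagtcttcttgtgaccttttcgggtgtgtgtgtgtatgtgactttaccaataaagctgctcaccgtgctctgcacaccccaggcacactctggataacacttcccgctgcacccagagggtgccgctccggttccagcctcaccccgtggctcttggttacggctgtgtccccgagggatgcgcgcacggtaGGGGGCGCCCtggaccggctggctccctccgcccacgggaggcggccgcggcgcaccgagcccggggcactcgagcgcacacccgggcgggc
Kcnmb1, chr11:33962763-33963062, plus strand: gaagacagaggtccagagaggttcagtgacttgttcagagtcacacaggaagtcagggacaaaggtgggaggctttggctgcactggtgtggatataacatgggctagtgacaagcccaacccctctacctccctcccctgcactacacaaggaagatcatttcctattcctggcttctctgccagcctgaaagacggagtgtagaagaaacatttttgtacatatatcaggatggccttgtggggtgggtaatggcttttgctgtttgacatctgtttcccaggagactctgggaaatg
The capitals mark the single match among 4 motifs searched on both strands, an NF-κB-type GGGNNNNNCC that begins 42 bases before the RefSeq start of Kcnh1 and reads on both strands. NF-κB is the transcription factor that IL-1β is known to activate. The same letters occurred in 50.8% of 32851 promoters of the same length. The STAT-type TTCNNNGAA occurred in 8.30%, the interferon-type GAAANNGAAA in 3.44% and the C/EBP-type TTGCNNAA in 10.8%, and none of these was in the 3 windows. The motifs were chosen after the levels were seen, and a match is only a match of letters.

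With IL-1β the channel genes of β-cells were mostly lower, while the median of all genes was not. Of 39 compared, 13 were at least 2-fold lower and 4 at least 2-fold higher. Over all 11803 genes compared, 6.44% were at least 2-fold lower and 17.1% at least 2-fold higher. The median ratio to the untreated library was 0.761 over the channel genes and 1.27 over all genes. With the median gene set to 1, 17 were lower and 2 higher, beside 11.8% and 8.97% of all genes on that scale. With the hormones left out of the totals the split was the same, beside 13.3% and 8.29%. By ion, 11 of 27 K+ channel genes were lower and 3 higher, 1 of 7 Ca2+ channel genes was lower, and of 4 Na+ channel genes 1 was lower and 1 higher.

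With both cytokines 16 of 40 were at least 2-fold lower and 3 higher, where 12.8% and 12% of all genes were. The median ratio was 0.611 for the channel genes and 1.0 for all genes. Of 27 K+ channel genes 15 were lower and 2 higher, against 1 lower and 1 higher of 8 Ca2+ channel genes and none of 4 Na+ channel genes in either direction. These comparisons share the untreated library, so they are not independent of each other.

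With IFN-γ alone the median channel gene was near the median of all genes. Of 40 compared, 5 were at least 2-fold higher and 2 at least 2-fold lower, beside 5.81% and 0.854% of all genes, and the median ratios were 1.22 and 1.23. With the median gene set to 1 the split was 4 and 3, beside 3.46% and 2%, and with the hormones left out it was 4 and 4, beside 3.36% and 2.1%. Those higher were Kcnc2, Kcna2, Kcnn2, Cacna2d4 and Scn3b, and Kcnj12 was among those lower. Against IL-1β alone, the library with both cytokines had 2 of 31 higher, Kcnc2 among them, and 4 lower (Kcnn3, Kcnh8, Kcnq1ot1 and Scn9a, of which Kcnh8 is named after its values were seen), beside 2.88% and 8.24% of all genes, and with the median gene set to 1 the split was 2 and 1, beside 4.84% and 3.11%. After thinning none was higher and 3 were lower. The Kcnc2 ratio there, 3.79 (1.29 to 15.1), rested on 4 UMIs with IL-1β and was 1.66 without the upper limit on genes.

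**Figure D2:**
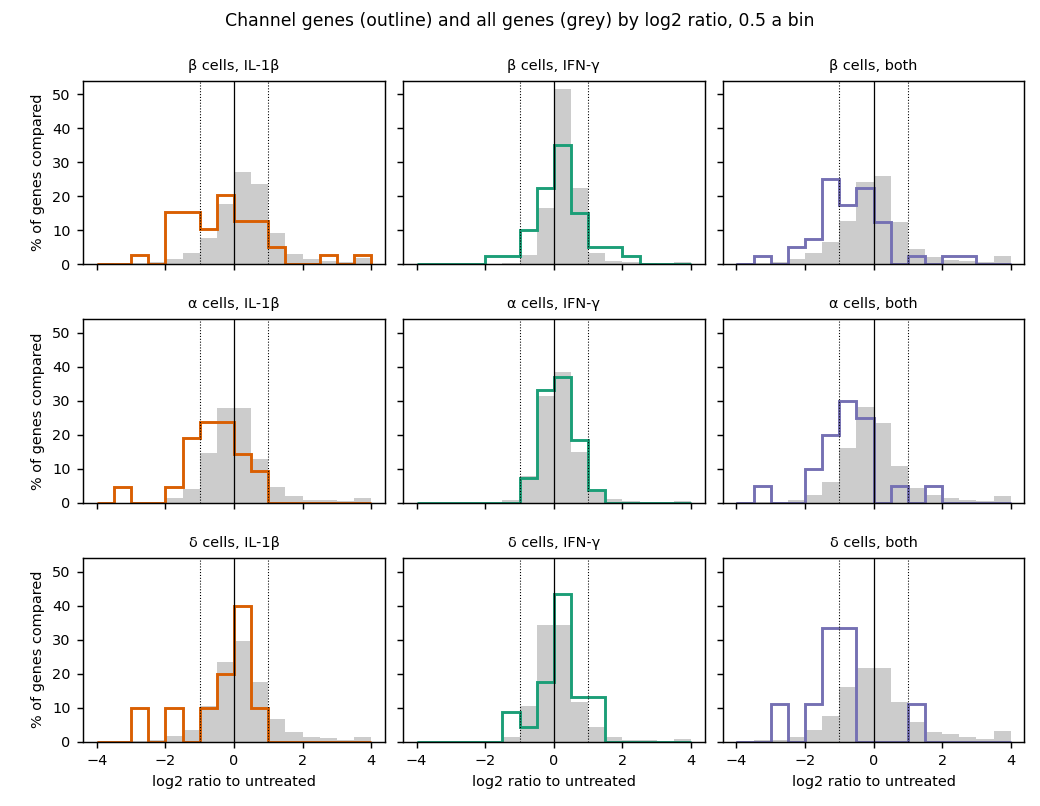
Share of genes compared (percent, vertical axis) by log2 ratio of level to the untreated library, in bins of 0.5, for channel genes (colored outline) and all genes (grey bars) in 3 cell classes and 3 treatments. Dotted lines mark a 2-fold difference. The outline sits to the left of the grey bars in β-cells with IL-1β (medians 0.761 and 1.27) and with both cytokines (0.611 and 1.0), and over them with IFN-γ (1.22 and 1.23). Values beyond 4 on the log2 scale are drawn in the outermost bin.

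Among the K2P genes, Kcnk16 had 88.9, 30.1, 86.4 and 33.0 CPM in β-cells. Both libraries that received IL-1β were low, and the intervals (26.9 to 33.6 and 30.2 to 35.9) lay far below those of the other libraries (84.9 to 93.1 and 81.7 to 91.4). The ratio was 0.339 (0.30 to 0.382) in the IL-1β library, 0.972 (0.904 to 1.05) in the IFN-γ library and 0.371 (0.336 to 0.408) in the combined one. A Kcnk16 UMI was found in 64.6% of untreated β-cells and in 20.8%, 50.2% and 29.3% of treated ones. For thinning, cells under 4000 UMIs were left out, 38, 74, 52 and 31 β-cells and 13, 31, 31 and 5 non-endocrine cells. After each cell that remained was thinned to 4000 UMIs the shares in β-cells were 29.0%, 9.97%, 27.4% and 11.3%. Thinned non-endocrine cells should lack the gene. A UMI was found in 1 of 64 untreated ones (1.56%) and in 0 of 59, 77 and 57 treated ones. That allows up to 5.08%, 3.90% and 5.26% when a count of 0 is taken to allow 3 cells. The median depth of those background cells before thinning was 8683, 6417, 9105 and 9679 UMIs, and that of the thinned β-cells 17315, 8731, 11272 and 12340.

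The same gene was low in the same libraries in the other classes. In α-cells it had 162, 16.2, 139 and 18.5 CPM, with ratios of 0.0997 (0.0688 to 0.142), 0.855 (0.704 to 1.04) and 0.114 (0.0742 to 0.169). In δ-cells it had 293, 50.3, 204 and 41.9 CPM, with ratios of 0.172 (0.111 to 0.259), 0.698 (0.554 to 0.885) and 0.143 (0.0830 to 0.234). The level with both cytokines relative to IL-1β alone was 1.09 (0.951 to 1.26) in β-cells, 1.14 (0.688 to 1.87) in α-cells and 0.832 (0.443 to 1.53) in δ-cells. The β-cell value was 1.38 with the median gene set to 1 and 1.26 with the hormones left out of the totals. The ratios with IL-1β stayed between 0.248 and 0.348 in β-cells, 0.0656 and 0.119 in α-cells and 0.132 and 0.291 in δ-cells under 8, 8 and 7 alternative settings.

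Kcnk12, a K2P subunit of the THIK group, had 13.5, 5.54, 12 and 5.44 CPM in β-cells and 27.2, 9.47, 18.1 and 14.2 in α-cells. Its β-cell level was low in the same pair of libraries as that of Kcnk16, at ratios of 0.411 (0.304 to 0.546) and 0.403 (0.314 to 0.515). Kcnk1, which encodes the weakly rectifying TWIK-1, had 22.3, 35.3, 27.6 and 20.8 CPM in β-cells. It went the other way with IL-1β alone but not with both cytokines. Its ratio of 1.58 (1.38 to 1.82) with IL-1β was 1.16 with the hormones left out of the totals. Kcnk3, the acid-sensitive channel TASK-1, had 53.3, 35.5, 62.7 and 34.5 CPM in α-cells, at most 1.78 in β-cells and at most 21.3 in δ-cells. Pancreatic polypeptide cells, which entered no comparison, had 34.2, 15.3, 34.9 and 27.9 CPM of it, from 14, 5, 24 and 16 UMIs. For comparisons between classes, a count under 3 UMIs in another class was taken as 3. Of 27 genes Kcnk3 was the 1 at least 2-fold above β- and δ-cells in all 4 libraries of α-cells, where 0.761% of all genes were. In β-cells none of 41 was called by that rule, beside 0.614% of all genes. The rule can miss genes of low level. Kcnj12 had UMIs in the β-cells of every library and none in α- or δ-cells, and was not called. The α-cell number was 0 with a leading hormone over 90%, which left few δ-cells to compare with, and 2 with a hormone share of 2%.

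**Figure D3:**
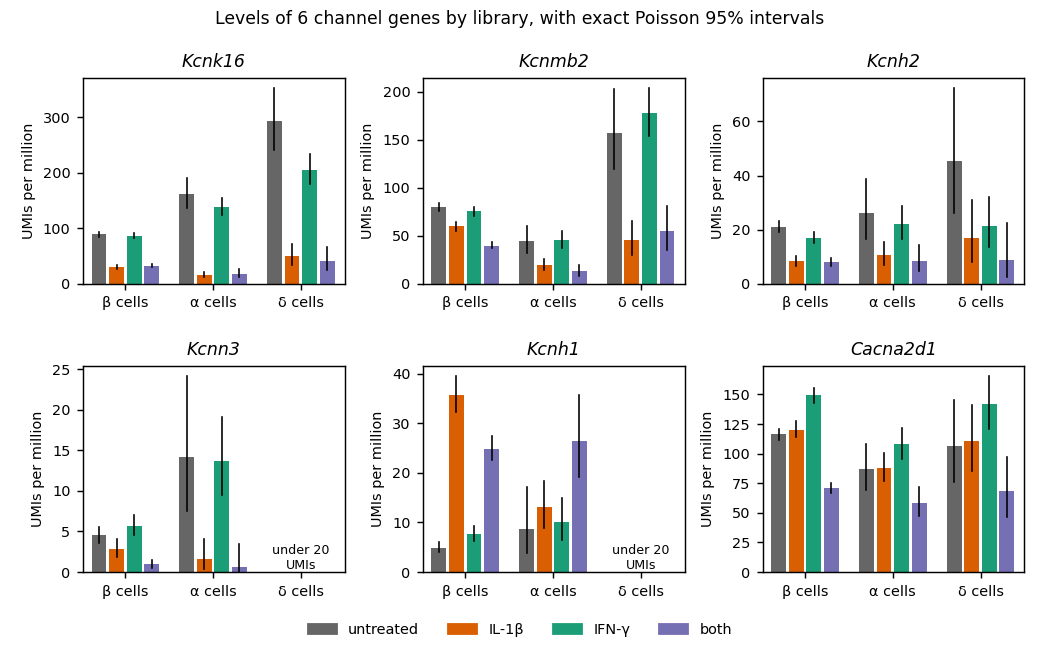
Level (CPM, bars from 0) of 6 channel genes in β-, α- and δ-cells, colored by library, with exact Poisson 95% intervals as black lines. Kcnk16 and Kcnmb2 are lower in the IL-1β and combined libraries than in the other libraries in all 3 classes, and Kcnh1 is higher in the same libraries in β-cells (35.7 and 24.9 CPM beside 4.91 untreated).

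Of the inward rectifiers, Kcnj12, a strong rectifier of the Kir2 group, had 3.52, 0.563, 1.24 and 0.433 CPM in β-cells, from 71, 6, 18 and 7 UMIs. All 3 treated libraries were low, with ratios of 0.160 (0.0568 to 0.366), 0.353 (0.198 to 0.598) and 0.123 (0.0477 to 0.267). Under 8 alternatives the ratio with IL-1β ranged from 0.0506 to 0.183. Kcnj6, a G-protein-gated rectifier, had 4.06, 8.73, 5.38 and 5.19 CPM in β-cells. Its 2.15-fold (1.58 to 2.92) higher level with IL-1β was 1.57-fold with the hormones left out, under the 2-fold limit, and 1.42-fold after thinning. In α-cells Kcnj6 had 21.8, 11.8, 19.3 and 9.85 CPM. Kcnj3, its usual partner subunit, was measured in α-cells alone, with 9.80, 1.97, 23.3 and 0.615 CPM from 9, 5, 58 and 1 UMIs. It was the only α-cell gene of 27 at least 2-fold higher with IFN-γ, at 2.38 (1.17 to 5.47), and none was 2-fold lower, where 6.42% and 0.961% of all genes were.

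Kcnh1 was the only 1 of 12 voltage-gated pore genes at least 2-fold higher in β-cells with IL-1β, and again with both cytokines, while 6 of the 12 were lower in each. It had 4.91, 35.7, 7.65 and 24.9 CPM in β-cells. The intervals of the IL-1β library (32.2 to 39.5) and the combined one (22.5 to 27.4) lay above those of the others (3.99 to 5.97 and 6.29 to 9.21). The ratios were 7.28 (5.82 to 9.18), 1.56 (1.18 to 2.07) and 5.06 (4.05 to 6.38), and stayed at 5.34 or above with IL-1β and at 3.39 or above with both under 8 alternatives. With IFN-γ added to IL-1β the level was 0.695 (0.603 to 0.802) of that with IL-1β alone. A Kcnh1 UMI was found in 7.03%, 23.5%, 7.02% and 21.8% of β-cells, and after thinning in 2.68%, 13.2%, 2.94% and 8.52%, with none in thinned non-endocrine cells. In α-cells Kcnh1 had 8.71, 13.0, 10.1 and 26.5 CPM, high with both cytokines (ratio 3.04, 1.41 to 7.48), while with IL-1β alone the interval of the ratio, 0.677 to 3.75, included 1. In δ-cells it had 8 UMIs in all.

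Kcnh2 and Kcnh6, of the related ERG channels, were lower in the same libraries. Kcnh2 had 21.0, 8.35, 17.0 and 7.91 CPM in β-cells, with ratios of 0.398 (0.313 to 0.502) with IL-1β and 0.377 (0.307 to 0.461) with both, and 26.1, 10.7, 22.1 and 8.61 CPM in α-cells. Kcnh6 had 7.53, 2.16, 4.69 and 1.73 CPM in β-cells, at 0.286 (0.176 to 0.446), 0.622 (0.460 to 0.833) and 0.230 (0.148 to 0.345) of untreated. Kcnh8, also of the ether-à-go-go family, had 2.92, 4.03, 4.41 and 1.79 CPM, at 1.38 (0.909 to 2.08) with IL-1β and 0.613 (0.379 to 0.972) with both. Kcnd1, an A-type channel, had 2.03, 1.31, 1.17 and 0.618 CPM, from 41, 14, 17 and 10 UMIs.

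A pair of voltage-gated pore genes stood out in the IFN-γ library instead. Kcnc2, another fast channel, had 1.14, 0.375, 5.31 and 1.42 CPM in β-cells, from 23, 4, 77 and 23 UMIs, a ratio of 4.66 (2.89 to 7.77) with IFN-γ that was 2.41 after thinning. Kcna2, of the Shaker group, had 1.24, 0.657, 4.34 and 0.618 CPM, a ratio of 3.5 (2.17 to 5.81). Both were highest with IFN-γ alone and not with both cytokines, where Kcnc2 was at 1.25 (0.669 to 2.33) and Kcna2 at 0.499 (0.214 to 1.08). Kcnc2 had a UMI in 69 of 1310 β-cells with IFN-γ (5.27%), beside 1.84% untreated and 1 of 108 non-endocrine cells with IFN-γ. After thinning the shares were 1.67% and 0.691% in β-cells and 0 of 77 in non-endocrine cells with IFN-γ, which allows up to 3.90% by the same rule, and the part of free RNA was not tested.

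Of the auxiliary K+ subunits, Kcnab3, a cytoplasmic β subunit whose gene overlaps the antisense Kcnab3os, had 6.69, 1.97, 4.69 and 2.41 CPM, at 0.294 (0.176 to 0.468), 0.70 (0.515 to 0.944) and 0.360 (0.246 to 0.518) of untreated. Kcnip1, a Ca2+-binding partner of A-type channels, had 23.1, 41.7, 29.1 and 28.8 CPM, a ratio of 1.81 (1.59 to 2.07) with IL-1β that was 1.33 with the hormones left out.

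In the Ca2+-activated family the pore gene and 1 auxiliary subunit were lower with both cytokines in β-cells while another auxiliary subunit was higher. Kcnma1, the large-conductance pore, had 33.4, 26.8, 34.3 and 14.1 CPM in β-cells, and was low with both cytokines (0.423, 0.362 to 0.492) more than with IL-1β (0.804, 0.698 to 0.925). Kcnmb2, the auxiliary subunit that inactivates it, had 79.9, 59.9, 75.5 and 39.9 CPM in β-cells, 44.6, 19.3, 45.4 and 12.9 in α-cells and 157, 45.3, 178 and 55.1 in δ-cells. Its level with both cytokines was 0.499 (0.455 to 0.547), 0.289 (0.163 to 0.501) and 0.351 (0.211 to 0.569) of untreated, and the β-cell value was 0.503 without the upper limit on genes, just short of a 2-fold difference. Kcnmb1 had 0.397, 5.35, 0.827 and 2.91 CPM in β-cells, from 8, 57, 12 and 47 UMIs. Both libraries with IL-1β were high, at 13.5 (6.40 to 32.7) and 7.33 (3.43 to 18.0) times the untreated level. It was found in 3.70% and 3.28% of the β-cells of those libraries and in 0.669% and 0.840% of the others, and after thinning in 0.0864%, 1.49%, 0.318% and 0.938%. In α-cells its share was 1.10%, 1.67%, 0.328% and 1.12%, and in non-endocrine cells, whose vascular members can express the gene, 5.19%, 2.22%, 0.926% and 1.61%, from 4, 2, 1 and 1 cells. The part of free RNA in these low shares was not tested. Because Kcnmb1 lies inside Kcnip1 on the other strand and the strand setting of the counting was not stated, reads of this pair may not be fully separate.

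The small-conductance channel genes that were compared, Kcnn3 and Kcnn2, were low with both cytokines in β-cells. Kcnn3 had 4.51, 2.81, 5.72 and 0.927 CPM in β-cells, at 0.206 (0.111 to 0.357) of untreated with both and 0.624 (0.399 to 0.952) with IL-1β. The library with both cytokines was also at 0.329 (0.165 to 0.632) of the IL-1β library. In α-cells it had 14.2, 1.58, 13.7 and 0.615 CPM, from 13, 4, 34 and 1 UMIs. Kcnn2 had 0.991, 0.938, 2.90 and 0.309 CPM in β-cells, high with IFN-γ (2.92, 1.68 to 5.25) and low with both (0.312, 0.0914 to 0.856). Kcnu1, the sperm channel of the wider Ca2+- or Na+-activated family, is named here after its values were seen and had 3.12, 1.13, 2.83 and 1.05 CPM.

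**Figure D4:**
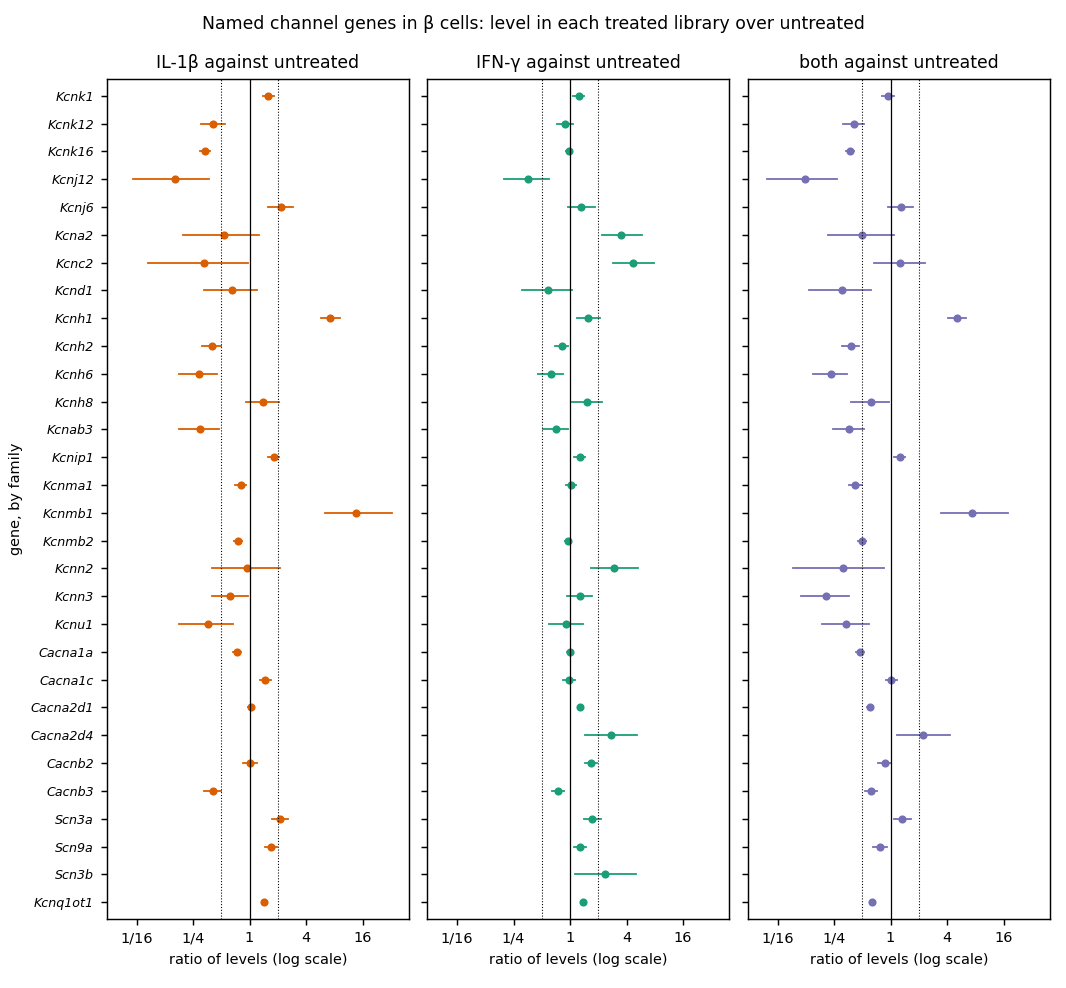
Ratio of each named gene's level in β-cells to the untreated library (log axis) with IL-1β, IFN-γ and both cytokines, genes ordered by family from K2P genes at the top. Points are ratios, lines exact 95% intervals for counting error, and dotted lines a 2-fold difference. In the first and last panels Kcnk12, Kcnk16 and Kcnj12 lie left of the 2-fold line, with Kcnh1 (7.28 and 5.06) and Kcnmb1 (13.5 and 7.33) far to the right.

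The Ca2+ channel genes had median ratios of 0.946, 1.24 and 0.786 over the 7, 8 and 8 compared in β-cells. Cacna1a, the P/Q-type pore, had 68.4, 50.1, 68.2 and 32.2 CPM, at 0.471 (0.425 to 0.522) with both cytokines, the only 1 of those 8, which do not include Cacna1d, at least 2-fold lower there. In α-cells it had 69.7, 39.5, 64.3 and 32.0 CPM and in δ-cells 101, 109, 89.7 and 48.5, so that the combined library was the lowest in all 3 classes. The ratio passed the 2-fold limit narrowly, and after thinning was 0.505 in β-cells and 0.524 in α-cells. Cacna1c, the pore of an L-type channel named here after its values were seen, had 24.0, 35.4, 23.4 and 24.5 CPM in β-cells.

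Cacna2d1, an α2δ subunit that brings the pore to the membrane, had 116, 120, 149 and 70.7 CPM in β-cells, at 0.608 (0.566 to 0.653) with both cytokines. Cacna2d4 of the same group had 0.843, 1.78, 2.27 and 1.85 CPM, from 17, 19, 33 and 30 UMIs. Its ratio with IFN-γ was 2.70 (1.46 to 5.17) and that with both cytokines 2.20 (1.18 to 4.25), and these were 1.62 and 1.37 without the upper limit on genes per cell. Cacnb3, a cytoplasmic β subunit, had 27.8, 11.3, 20.7 and 17.4 CPM in β-cells and was the only 1 of the 7 compared that was at least 2-fold lower with IL-1β, at 0.405 (0.330 to 0.494). In α-cells it had 56.6, 22.5, 41.8 and 28.3 CPM. Cacnb2, its relative, had 18.5, 18.9, 31.0 and 16 CPM in β-cells, with a ratio of 1.68 (1.46 to 1.93) with IFN-γ.

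Of the Na+ channel genes, Scn3a had 8.87, 18.8, 15.3 and 11.8 CPM in β-cells. All treated libraries were above the untreated one, at 2.11 (1.72 to 2.60), 1.72 (1.41 to 2.11) and 1.33 (1.08 to 1.64), and the value with IL-1β was 1.55 with the hormones left out and 1.68 without the upper limit on genes. In δ-cells, where the gene had 104, 63.7, 111 and 44.1 CPM, the ratios were 0.614 (0.382 to 0.986), 1.07 (0.742 to 1.58) and 0.425 (0.235 to 0.746). Scn9a had 19.2, 32.3, 24.3 and 14.8 CPM in β-cells and was lower with both cytokines than with IL-1β alone, at 0.460 (0.388 to 0.544), which was 0.529 with the hormones left out. Scn3b, an auxiliary β subunit, had 0.644, 1.5, 1.52 and 0.680 CPM in β-cells, with a ratio of 2.35 (1.13 to 5.09) with IFN-γ that was 1.08 without the upper limit on genes.

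Kcnq1ot1, which is no channel gene but a noncoding RNA antisense to Kcnq1, had 251, 358, 344 and 161 CPM in β-cells, 376, 449, 564 and 284 in α-cells and 418, 500, 585 and 291 in δ-cells. The combined library was the lowest in all 3 classes, at 0.641 (0.611 to 0.672), 0.757 (0.657 to 0.873) and 0.696 (0.548 to 0.883) of untreated. The δ-cell value turned to 1.49 where the leading hormone had to exceed 90%. The overlapping Kcnq1 had 8 UMIs in all β-cells and none in α- or δ-cells.

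Over α-cells as a class, 6 of 21 genes were at least 2-fold lower with IL-1β and none higher, beside 6.11% and 10.3% of all genes, with a median of 0.675 against 1.01. They included Kcnk16, Kcnk12, Cacnb3, Kcnh2 and Kcnmb2, and each of these except Kcnmb2, at 0.751, was also at least 2-fold lower in β-cells. With both cytokines 7 of 20 were lower and 1 higher, beside 10.1% and 11.3%, with a median of 0.582 against 0.954. The 7 were Kcnk16, Kcnmb2, Kcnh2, Kcnma1, Kcnj6, Cacna1a and Cacnb3, of which Cacnb3 at 0.50, Cacna1a at 0.459 and Kcnj6 at 0.452 no longer reached a 2-fold difference with the median gene set to 1. Against IL-1β alone, 1 of 21 was higher (Kcnh1, 2.03, which was 1.49 after thinning) and none lower, beside 3.58% and 6.27%. After thinning none was higher and 2 were lower, and without the upper limit on genes none was higher and 1 lower.

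Over δ-cells the counts were few, and in 39 of 44, 76 of 109, 112 of 150 and 47 of 69 of these cells somatostatin made up only 50 to 90% of the hormone UMIs. With cells over 90% alone, the genes past a 2-fold difference numbered 0 with IL-1β, 2 with IFN-γ, 0 with both and 1 for both against IL-1β. Few δ-cells were left there and genes still had to reach 20 UMIs, so a count of 0 need not mean that differences were lost. Kcnk16 was at least 2-fold lower with IL-1β and with both in each of the 7 alternatives that gave it a value. With IL-1β 2 of 10 genes, Kcnk16 and Kcnmb2, were at least 2-fold lower and none higher, beside 5.86% and 13.3% of all genes, with a median of 0.956 against 1.12. With both cytokines 5 of 9 were lower (Kcnk16, Kcnmb2, Scn9a, Scn3a and Cacna1a) and Cacnb2 was higher, beside 13.3% and 15.8%, with a median of 0.480 against 0.979. The Cacnb2 ratio was 2.17 (0.925 to 5.68), so its interval included 1, and it was under 2 in 3 of 5 alternatives, down to 1.31 without the upper limit on genes. With IFN-γ 3 of 23 were higher (Cacnb2, Cacna2d3 and Kcnj6) and 2 lower, Kcnh2 among them, beside 7.71% and 1.53%, and the split was 4 and 1 with the median gene set to 1, beside 8.84% and 1.11%, and 2 and 2 with the hormones left out, beside 7.25% and 1.7%. Against IL-1β alone, 1 of 11 was higher (Cacnb2) and 2 lower (Scn9a and Cacna1a), beside 6.23% and 10.8%. With a hormone limit of 10% none of the IFN-γ differences reached 2-fold.

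Of 23 genes measured in δ-cells, 4 were at least 2-fold above both other classes in all 4 libraries, beside 2.24% of all genes. Counts under 3 UMIs in the other classes were again taken as 3. That number was 2 with a hormone share of 10%, 1 after thinning and 0 with a leading hormone over 90%. These settings left fewer δ-cells or UMIs, so fewer genes could be called. Except for Kcnc2 they are named after their values were seen. The T-type pore gene Cacna1h had 29.3, 45.3, 52.9 and 28.7 CPM in δ-cells, at most 0.618 in β-cells and at most 2.41 in α-cells. The α2δ gene Cacna2d2 had 31.9, 15.1, 33.2 and 11.0 CPM in δ-cells and at most 0.620 and 0.615 in the others, and Cacna2d3 had 10.6, 30.2, 23.3 and 19.8 CPM in δ-cells with at most 1.03 in β-cells and 5.92 in α-cells. Kcnc2 had 18.6, 6.71, 19.7 and 17.6 CPM in δ-cells, and no more than 5.31 in β-cells and 1.18 in α-cells. These levels rest on 4 to 59 UMIs in each library. In pancreatic polypeptide cells Cacna2d3 had 2.44, 15.3, 16 and 10.5 CPM, from 23 UMIs in all. The other 3 genes had 10, 1 and 5 UMIs there (Cacna1h, Cacna2d2 and Kcnc2).

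Other genes of excitability and ion handling were read from a list of 51 outside the naming rule. In β-cells 5 of 41 compared were at least 2-fold lower and 1 higher with IL-1β, none lower and 1 higher with IFN-γ, and 9 lower and 1 higher with both. The shares of all genes at least 2-fold lower in β-cells were 6.44%, 0.854% and 12.8%, and those higher 17.1%, 5.81% and 12%. In α-cells the counts were 2 lower and 1 higher of 26, none of 28 in either direction, and 5 lower and 1 higher of 25, beside 6.11%, 0.961% and 10.1% of all genes lower and 10.3%, 6.42% and 11.3% higher. In δ-cells they were 3 lower and 1 higher of 17, none lower and 2 higher of 22, and 4 lower and 2 higher of 18, beside 5.86%, 1.53% and 13.3% lower and 13.3%, 7.71% and 15.8% higher. Kcnj11, the pore of the ATP-sensitive channel, had 22.4, 30.9, 24.1 and 27.3 CPM in β-cells, at 1.38 (1.19 to 1.59), 1.08 (0.936 to 1.24) and 1.22 (1.07 to 1.40). These ratios were 1.01, 0.863 and 1.03 with the hormones left out of the totals. Cacna1d, the pore of the other L-type channel of β-cells, had 51.1, 35.5, 68.5 and 22.6 CPM, at 0.443 (0.392 to 0.50) with both cytokines. Gem, a small GTPase that inhibits voltage-gated Ca2+ channels, had 3.92, 11.9, 3.79 and 21.6 CPM and was the 1 gene that was higher with both, at 5.53 (4.32 to 7.15). Gjd2, the gap junction connexin of β-cells, had 60.2, 37.0, 57.7 and 13.4 CPM, at 0.223 (0.192 to 0.258) with both. Itpr1 and Itpr2, Ca2+ release channels of the endoplasmic reticulum, were at 0.409 (0.356 to 0.469) and 0.306 (0.236 to 0.392) with both, the Na+ leak channel gene Nalcn at 0.413 (0.326 to 0.519) and the pacemaker channel gene Hcn2 at 0.447 (0.354 to 0.559).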

How the data were processed

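Single-cell RNA was counted in 4 libraries. The authors deposited whole-number UMI counts for each gene and barcode, made with Cell Ranger (software version 3.0.0 in the matrix headers) against mm10 per the labels, with no normalization. The reagent kit is version 3 in the study's methods and version 2 in the labels. All 4 libraries came from 1 pool of islets.

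Python 3.11.15 was used with scipy 1.17.1, numpy 2.4.6, pandas 2.3.3 and matplotlib 3.10.9. Doublets were treated by the upper limit of 4000 genes alone. A cell took the class of its highest hormone when that hormone held at least 5% of its UMIs and over 50% of its UMIs of 4 hormones. Genes with at least 20 UMIs in either group were compared by CPM of summed UMIs, with exact Poisson intervals for levels, conditional binomial intervals for ratios and Clopper-Pearson intervals for shares. A gene counted as higher or lower at a ratio of at least 2 or at most 0.5. For comparisons between classes, counts under 3 UMIs in another class were taken as 3. Thinning used only cells of at least 4000 UMIs. The calculations were tested on simulated data. Genes were named by rule, being the up to 5 largest differences in each direction per class and treatment whose interval left out 1 and the 8 highest levels per class (33 genes), beside Kcnj11, Cacna1d and 6 of the other list farthest from 1 in β-cells with both cytokines. The genes, lists and settings were chosen with earlier results of these data known. Some genes that entered the counts are not reported here by name. Positions are from GENCODE M21 (all 137 matched). Alternatives changed the gene, mitochondrial and hormone limits, the scaling, the depth, the fold and the minimum count.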

Additional observations from a re-analysis of the deposited data

Results flagged for a closer look

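Scn3a differed in direction between cell classes. With IL-1β its level relative to untreated was 2.11 in β-cells and 0.614 in δ-cells, and with both cytokines it was 1.33 in β-cells and 0.425 in δ-cells. The intervals of these left out 1, but the β-cell value with both was 1.12 with the hormones left out of the totals, and with 1 library a condition the difference between the classes was not tested.

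Some channel genes were far higher in non-endocrine cells, which entered no comparison, than in β-, α- or δ-cells. These cells were picked by endothelial, macrophage and mesenchymal markers and numbered 77, 90, 108 and 62, in the order of libraries used above. Kcnj8, an inward rectifier of the vascular ATP-sensitive channel, had 78.3, 80.6, 44.1 and 42.7 CPM there and at most 0.402 in the endocrine classes. Kcne3, an auxiliary K+ channel subunit, had 75.0, 64.5, 22.7 and 7.12 CPM, from 46, 32, 18 and 4 UMIs. Kcnk5, a K2P gene, had 42.4, 18.1, 12.6 and 5.34 CPM, from 26, 9, 10 and 3 UMIs. Kcnn4, the intermediate-conductance Ca2+-activated channel of blood cells, had 17.9, 10.1, 13.9 and 37.4 CPM, from 11, 5, 11 and 21 UMIs. The last 3 were at or below 0.395 CPM in the endocrine classes. The mix of cell types among these few cells may differ between libraries, and its part in these values was not tested.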

How the results depend on the processing

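No paired analysis was possible because each condition is 1 library. No 2-fold difference of a named gene changed direction under any alternative that gave a value, while some ratios nearer 1 crossed 1. Counts of genes past 2-fold within 1.5 times those reported are not repeated, which holds for all 12 at a mitochondrial limit of 20%. For brevity the comparisons are IL-1β, IFN-γ and both against untreated, and both against IL-1β. After thinning to 4000 UMIs a cell, β-cells had 4 with IFN-γ, 12 with both and 3 for both against IL-1β, α-cells 3, 2, 3 and 2, and δ-cells 2 with IFN-γ, 2 with both and 1 for both against IL-1β. With the hormones left out of the totals β-cells had 3 for both against IL-1β. With the median gene set to 1 β-cells had 3 for both against IL-1β, and α-cells 5 with both. Without the upper limit on genes δ-cells had 7 with IL-1β and 3 with IFN-γ. A hormone share of 2% gave δ-cells 5 and 3 with IL-1β and IFN-γ, and α-cells 2 genes above the other classes. A share of 10% gave δ-cells 0 with IFN-γ, 3 with both, 1 for both against IL-1β and 2 genes above the other classes. A leading hormone over 90% gave δ-cells 0, 2, 0 and 1, and 0 genes above the other classes in α- or δ-cells. Thinning left 1 such gene in δ-cells. A 1.5-fold limit gave β-cells 15 with IFN-γ and 16 for both against IL-1β, α-cells 10, 5, 14 and 5, and δ-cells 4 with IL-1β, 8 with IFN-γ and 8 for both against IL-1β. A minimum of 100 UMIs gave β-cells 10, 1, 10 and 2, α-cells 1, 0, 1 and 0, and δ-cells 1, 0, 1 and 0. Of the ratios of named genes, 52 of 238 moved out of their counting interval with the hormones left out, 46 of 238 with the median gene set to 1 and 27 of 172 after thinning. Of these 238 ratios, 218 had a value with a hormone share of 10%, 202 with a leading hormone over 90% and 172 after thinning. A minimum of 100 UMIs also left fewer genes to compare. A smaller count at these settings thus need not mean that a difference was lost. Shares of all genes are given only for the main settings and the changes of scaling. δ-cells and genes under 100 UMIs carry the least depth.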

Other observations

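Pancreatic polypeptide cells, set apart by their leading hormone, numbered 32, 40, 75 and 58, in the order of libraries used above, and were left out of the comparisons above. Kcnk16 had 149, 42.9, 157 and 22.7 CPM there, from 61, 14, 108 and 13 UMIs, so that both libraries with IL-1β were again the lowest. Kcnmb2 had 51.3, 9.2, 55.3 and 3.49 CPM, from 21, 3, 38 and 2 UMIs. Cacna2d1, an α2δ subunit, had 83.1, 104, 128 and 73.3 CPM, and Scn3a had 53.7, 30.7, 82.9 and 19.2 CPM. These are descriptions of 1 library each.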
